A study of Mus musculus with 12 samples.

Results

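Endoplasmic reticulum (ER) stress genes were followed from marked hepatocytes to biliary epithelium in the injured mouse liver. The 10 genes, given by name, were the folding factors Hspa5, Hsp90b1, Pdia4, Dnajb9, Sdf2l1 and Creld2, the degradation factor Herpud1, the transcription factors Xbp1 and Ddit3, and the pseudokinase Trib3. All 10 were found by symbol among the 53599 genes of the count table, and all 10 were among the 16210 genes with enough counts to be tested. The libraries were bulk RNA-seq of cells sorted from livers of mice of genotype WT. Hepatocytes had been marked with EGFP by AAV8-TBG-Cre, a viral vector in which the hepatocyte promoter TBG drives Cre recombinase, and cells derived from them keep the mark. A diet with 0.1% DDC, a dihydrocollidine compound that injures bile ducts, began 1 week later and lasted 8 weeks in every group.

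Among EGFP+ cells, the early group was Cd24- Epcam-, the intermediate group Cd24+ Epcam- and the full group Cd24+ Epcam+. Cells that were EGFP- and Epcam+ formed the group of biliary epithelial cells (BEC). Each group had 3 libraries. All groups came from DDC-fed livers, so the early cells too come from injured liver, and no uninjured liver enters these comparisons. The age and sex of the mice, the reporter allele behind EGFP and whether a library came from 1 mouse are not given in the sources used here. The p-values therefore measure the spread between these libraries, which may be in part technical.

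The unfolded protein response is the program by which a cell adjusts its ER to the load of unfolded protein. It starts at 3 sensors in the ER membrane: ATF6 (Atf6), which is cut to release a transcription factor, IRE1 (Ern1), which splices the Xbp1 transcript, and PERK (Eif2ak3), which slows translation and raises ATF4. The ATF6 and XBP1 arms are known to drive chaperones and degradation factors, and the ATF4 arm to drive Ddit3 (CHOP) and Trib3. Hepatocytes secrete most plasma proteins and hold an extensive ER.

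Total counts ran from 15112893 to 19731887 per library. Levels are given in CPM, the counts of a gene relative to the library size, scaled by TMM, a method that centres most genes. The sort markers and albumin followed the labels. Alb averaged 73507 CPM in early, 12631 in intermediate, 2582 in full and 1653 in BEC. Cd24a stood at 3.20, 444, 1074 and 1073 CPM, and Epcam at 0.592, 18.8, 254 and 866 CPM, in the same order. Mitochondrial genes took 5.45% to 11.4% of the counts in early libraries, 3.99% to 4.75% in intermediate, 2.20% to 2.48% in full and 2.58% to 3.43% in BEC, so this share also differed along the groups. Early replicate 2 was the library at 11.4%, and the part of the mitochondrial share in the results was not tested.

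All 10 genes fell from early to intermediate cells, and 6 of them fell further from intermediate to full cells. Between full cells and BEC 1 gene was called, Xbp1, higher in BEC. With the replicate number as a block 8 genes fell at the second step, Hspa5 and Creld2 being added, and Trib3 was also called lower in BEC than in full (adjusted p = 0.00463). The shares of all genes below are those of the fit without this block, and the shares with it are not given here. A call means that edgeR's quasi-likelihood test gave an adjusted p under 0.05, with the Benjamini-Hochberg adjustment made over all 16210 genes. At the first step, 25.7% of all genes tested were called lower and 28.7% higher, against 10 and 0 of the 10 ER stress genes. At the second step 19.8% of all genes were called lower and 20.8% higher, against 6 and 0. Between full and BEC 10.7% of all genes were called higher and 10.6% lower, against 1 and 0. The median log2 fold change of the 10 genes was −0.99, −0.46 and 0.08 at the 3 steps, where that of all genes was 0.06, 0.01 and 0.00460. For 8 of the 10 genes, Creld2 and Trib3 being the exceptions, every early library stood above all 9 other libraries with TMM, as for 24.3% of all genes tested. With total counts this held for 2, Dnajb9 and Sdf2l1, and for 9.34% of all genes.

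The scaling sets how many of these genes are called at the first step. Scaled by total counts alone, 4 of the 10 were called between intermediate and early: Hsp90b1, Sdf2l1 and Ddit3 lower, and Xbp1 higher. TMM factors were between 0.652 and 0.672 in early and between 1.03 and 1.22 in the other groups, and the top 50 genes took up 33.5% ± 2.39 of an early library against 15.6% ± 0.938 of a BEC library (SD, n = 3). With total counts the median of all genes moved to 0.72 at the first step, and the share of higher calls among all calls from 52.8% to 85.6%. With that scaling 59.4% of all genes tested were called higher at the first step, against 1 of the 10, and 10% lower, against 3. At the second step 4 of the 10 were called lower with total counts, against 12.2% of all genes. They were Dnajb9, Sdf2l1, Herpud1 and Xbp1. Relative to the median of all genes, the median of the 10 genes was −1.05 at the first step and −0.47 at the second, a difference that the scaling cannot change because it moves all genes nearly alike. In bulk samples, fewer cells of a type and less RNA per cell cannot be told apart.

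**Figure D1:**
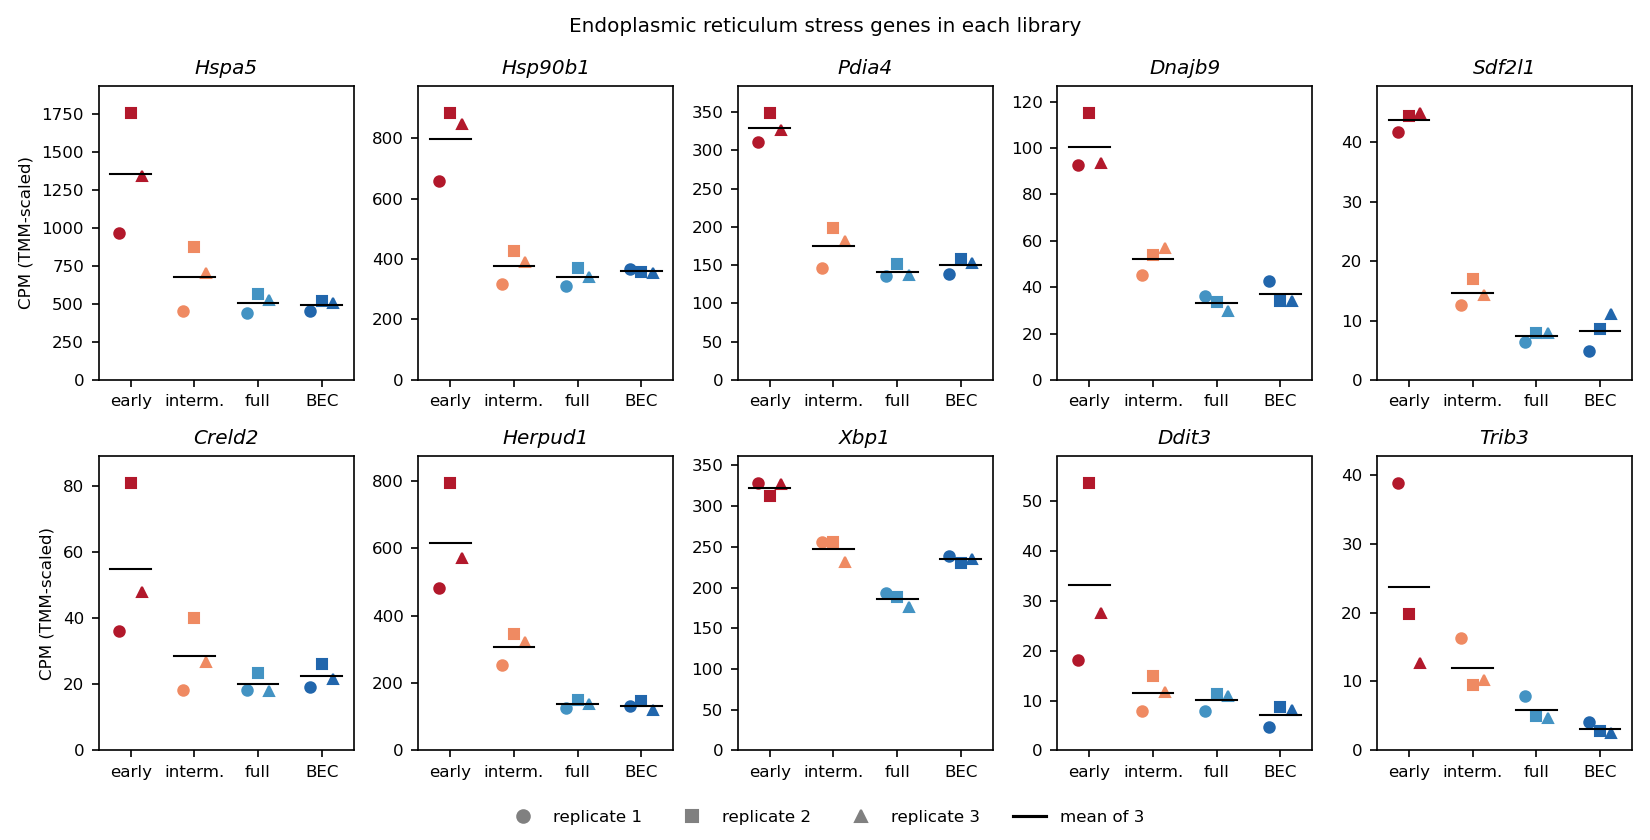
Level of each ER stress gene in TMM-scaled CPM (linear axis from 0) in each of the 12 libraries, by group; points are libraries and bars the mean of 3. The early libraries of Hspa5, between 968 and 1759 CPM, sit above all other libraries, while those of Trib3 spread from 12.7 to 38.8 CPM.

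Promoters of 4 members are shown because they hold matches to the motifs through which the ER stress factors are known to act. All 10 genes had a promoter in the RefSeq table (build GRCm38.p6), and the 250 bases before the gene's start were searched on both strands. The ER stress element is CCAAT and CCACG separated by 9 bases. It was found in 3 of the 10 members, and in 0.113% of the 32851 promoters of the table. ER stress element II, ATTGG and CCACG separated by 1 base, was found in Herpud1 alone among the members and in 0.0304% of all promoters. The unfolded protein response element core TGACGTG was found in Hspa5 (1.65% of all promoters), and the C/EBP-ATF core TGATGNAA in Herpud1 (3.45%). Both ER stress elements end in CCACG, and no 2 matches within a promoter overlapped. The other 6 members held none of these letters in this window. Sequences run 5′ to 3′ on the gene's strand, with matches in capitals.
Hspa5: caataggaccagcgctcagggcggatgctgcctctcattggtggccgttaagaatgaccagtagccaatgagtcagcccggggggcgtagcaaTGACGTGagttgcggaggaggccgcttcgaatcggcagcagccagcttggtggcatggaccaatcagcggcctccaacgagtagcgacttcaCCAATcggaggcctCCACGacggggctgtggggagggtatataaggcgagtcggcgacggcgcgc
Hsp90b1: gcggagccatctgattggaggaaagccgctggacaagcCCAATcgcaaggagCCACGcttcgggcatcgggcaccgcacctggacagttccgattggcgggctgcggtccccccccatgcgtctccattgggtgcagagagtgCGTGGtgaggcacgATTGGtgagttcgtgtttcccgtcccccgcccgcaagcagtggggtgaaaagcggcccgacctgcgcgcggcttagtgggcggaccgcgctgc
Creld2: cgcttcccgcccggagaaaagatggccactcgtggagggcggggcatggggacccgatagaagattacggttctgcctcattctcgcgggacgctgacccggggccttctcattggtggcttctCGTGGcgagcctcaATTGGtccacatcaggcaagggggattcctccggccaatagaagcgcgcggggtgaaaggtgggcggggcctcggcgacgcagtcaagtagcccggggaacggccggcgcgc
Herpud1: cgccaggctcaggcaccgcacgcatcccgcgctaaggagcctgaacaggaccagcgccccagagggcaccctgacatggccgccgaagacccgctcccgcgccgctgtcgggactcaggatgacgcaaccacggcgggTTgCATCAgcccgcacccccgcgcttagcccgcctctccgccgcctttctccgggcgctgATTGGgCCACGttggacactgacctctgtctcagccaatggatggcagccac
The Hspa5 sequence is chr2:34771840-34772089 on the plus strand, with the TGACGTG match at 157 to 151 bases and the ER stress element at 65 to 47 bases before the start. The Hsp90b1 sequence is chr10:86705445-86705694 on the minus strand. It carries an ER stress element at 212 to 194 bases before the start and another on the opposite strand at 107 to 89 bases. The Creld2 sequence is chr15:88819396-88819645 on the plus strand, with the element on the opposite strand at 126 to 108 bases. The Herpud1 sequence is chr8:94386179-94386428 on the plus strand, with the C/EBP-ATF core on the opposite strand at 112 to 105 bases and element II at 52 to 42 bases. A match of letters is a description and not a measured binding site.

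Hspa5 encodes BiP, the main ER chaperone of the Hsp70 family and the factor that holds the sensors inactive. Its level was 968, 1759 and 1341 CPM in early replicates 1, 2 and 3, and 457, 877 and 704 in intermediate. It was 439.8, 563 and 524 CPM in full and 453, 520.5 and 507 in BEC. The early libraries lay above all others and the remaining groups overlapped. Hspa5 fell by 0.998 on the log2 scale from early to intermediate (SE 0.23, adjusted p = 0.00209). From intermediate to full its log2 fold change was −0.42 (SE 0.23, adjusted p = 0.164). This was called when the replicate number entered as a block (−0.38, adjusted p = 0.0260) or when intermediate replicate 1 was left out (−0.64, adjusted p = 0.0253). With each library left out in turn the value ranged from −0.64 to −0.19.

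Hsp90b1 encodes GRP94, the ER member of the Hsp90 family. It stood at 659, 884 and 847 CPM in early, 318, 426 and 390.5 in intermediate, 311, 369 and 339.6 in full, and 368, 358 and 354 in BEC. The 9 libraries after early formed a single band from 311 to 426 CPM, below every early library. Hsp90b1 fell by 1.08 on the log2 scale at the first step (SE 0.13, adjusted p = 1.17e-05), or 2.11-fold, and was also called lower with total counts. From intermediate to full its log2 fold change of −0.15 (adjusted p = 0.381) changed sign with total counts, to 0.05. Pdia4, a protein disulfide isomerase, stood at 311, 349 and 327 CPM in early, 147, 198 and 181 in intermediate, 136, 152 and 137 in full, and 139, 159 and 153 in BEC. Pdia4 fell by 0.91 at the first step (SE 0.11, adjusted p = 1.24e-05). Its fall of 0.31 at the second (SE 0.11, adjusted p = 0.0383) was not called in DESeq2 (−0.27, adjusted p = 0.0511) or with total counts (−0.11, adjusted p = 0.457). Without intermediate replicate 2 it was −0.22 (adjusted p = 0.180). Without intermediate replicate 3, full replicate 1, full replicate 3 or BEC replicate 2 the value stayed near that of all libraries (−0.30, −0.28, −0.29 and −0.31), with adjusted p from 0.0505 to 0.113.

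Sdf2l1, a component of ER chaperone complexes, had the largest fall of the 10 genes at the first step, with Ddit3 close to it (log2 −1.51). These could not be ordered, since with each library left out in turn Sdf2l1 ranged from −1.70 to −1.48 and Ddit3 from −1.81 to −0.99. Sdf2l1 stood at 41.8, 44.5 and 44.9998 CPM in early, 12.6, 17.04 and 14.3 in intermediate, 6.34, 7.85 and 7.83 in full, and 4.91, 8.62 and 11.1 in BEC. Early, intermediate and full libraries formed separate bands, and the BEC libraries spread across the full band. Sdf2l1 fell 2.99-fold at the first step (log2 −1.58, SE 0.22, adjusted p = 3.32e-05) and by 0.996 at the second (SE 0.22, adjusted p = 0.00286), and it was called lower at both with total counts as well. Dnajb9 encodes ERdj4, a BiP co-chaperone that is a known XBP1 target. It stood at 92.6, 115 and 93.5 CPM in early, 45.4, 53.9 and 57.0 in intermediate, 36.3, 33.6 and 29.8 in full, and 42.7, 34.2 and 34.1 in BEC. These were separate bands down to full, with BEC overlapping full. Dnajb9 fell by 0.95 at the first step (SE 0.13, adjusted p = 2.85e-05) and by 0.65 at the second (SE 0.13, adjusted p = 0.00116).

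Creld2, an ER-resident protein induced by ER stress, stood at 36.1, 80.9 and 47.9 CPM in early, 18.4, 40.2 and 26.8 in intermediate, 18.4, 23.5 and 18.1 in full, and 19.2, 26.3 and 21.8 in BEC. Replicate 2 was highest in each group, and its intermediate library lay above the lowest early library. Creld2 fell by 0.94 at the first step (SE 0.29, adjusted p = 0.0134). The call was lost without early replicate 2, the library with the high mitochondrial share (−0.56, adjusted p = 0.0973), and without intermediate replicate 1 (−0.70, adjusted p = 0.0553). From intermediate to full its log2 fold change was −0.51 (adjusted p = 0.184), which was called with the replicate block (−0.45, adjusted p = 0.0243). With each library left out in turn it ranged from −0.75 to −0.18 and was not called.

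Herpud1, an ER membrane protein of the degradation complex, fell at both steps by similar amounts. It stood at 482, 793 and 571 CPM in early, 253, 346 and 322 in intermediate, 127, 149.8 and 138 in full, and 132, 145 and 121 in BEC. Early, intermediate and full did not overlap, while BEC lay across the full range. Herpud1 fell by 1.004 at the first step (SE 0.17, adjusted p = 0.000181) and by 1.15 at the second (SE 0.17, adjusted p = 0.000106), the latter being 2.22-fold. The second fall was also called with total counts (−0.95, adjusted p = 0.000463) and the first was not (−0.34, adjusted p = 0.0836).

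Xbp1 encodes the transcription factor that IRE1 activates by splicing, and it moved in a narrower range than the chaperones. Counts per gene do not separate the spliced from the unspliced transcript. Xbp1 stood at 328, 313 and 327 CPM in early, 256, 256 and 232 in intermediate, 193, 188 and 176 in full, and 239, 230.2 and 236 in BEC. Intermediate and BEC overlapped, with early above them and full below. With TMM, Xbp1 fell by 0.38 at the first step (SE 0.08, adjusted p = 0.00116) and with total counts the sign turned, to 0.28 higher (adjusted p = 0.00671). It fell by 0.41 at the second step (SE 0.08, adjusted p = 0.000958), as it did with total counts (−0.21, adjusted p = 0.0466). Xbp1 was 1.26-fold higher in BEC than in full (log2 0.34, SE 0.08, adjusted p = 0.00735), a call lost when no filter on low counts was used (0.31, adjusted p = 0.0824).

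Plasma cells are known for high Xbp1. The summed level of 10 plasma cell and B cell markers was 7.80 to 24.4 CPM in full and 23.4 to 65.0 in BEC, against 1.21 to 2.18 in early and 2.72 to 3.18 in intermediate. Between same-numbered libraries of full and BEC the sum went from 17.2 to 58.3, from 7.80 to 23.4 and from 24.4 to 65.0 CPM, higher in BEC in all 3 pairs. Of the 3 markers with enough counts to be tested 1 was called higher in BEC than in full (10.7% of all genes were). In BEC the B cell genes Cd79b and Ms4a1 were at the floor of 3 counts in every library and 5 of the 10 markers were above it in all 3. Macrophage markers (9 genes) summed to 65.3 to 95.9 CPM in full and 133 to 161 in BEC, mostly through Csf1r (61.0 to 73.4 and 119.6 to 133). Without Csf1r the other 8 summed to 20.9 to 24.0 CPM in early and 5.97 to 15.6 in intermediate, which do not overlap. Cd68 alone took 16.3, 13.3 and 12.3 CPM of this sum in early and 2.77, 2.52 and 2.94 in intermediate. Of the 8 macrophage markers tested at this step 1 was called higher and 1 lower, against 28.7% and 25.7% of all genes, and 6 were not called. Replicates 1, 2 and 3 of the sum without Csf1r were 4.30, 10.3 and 22.5 CPM in full and 5.20, 19.0 and 41.2 in BEC, higher in BEC in each pair. The part of these cells in the Xbp1 difference was not tested.

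**Figure D2:**
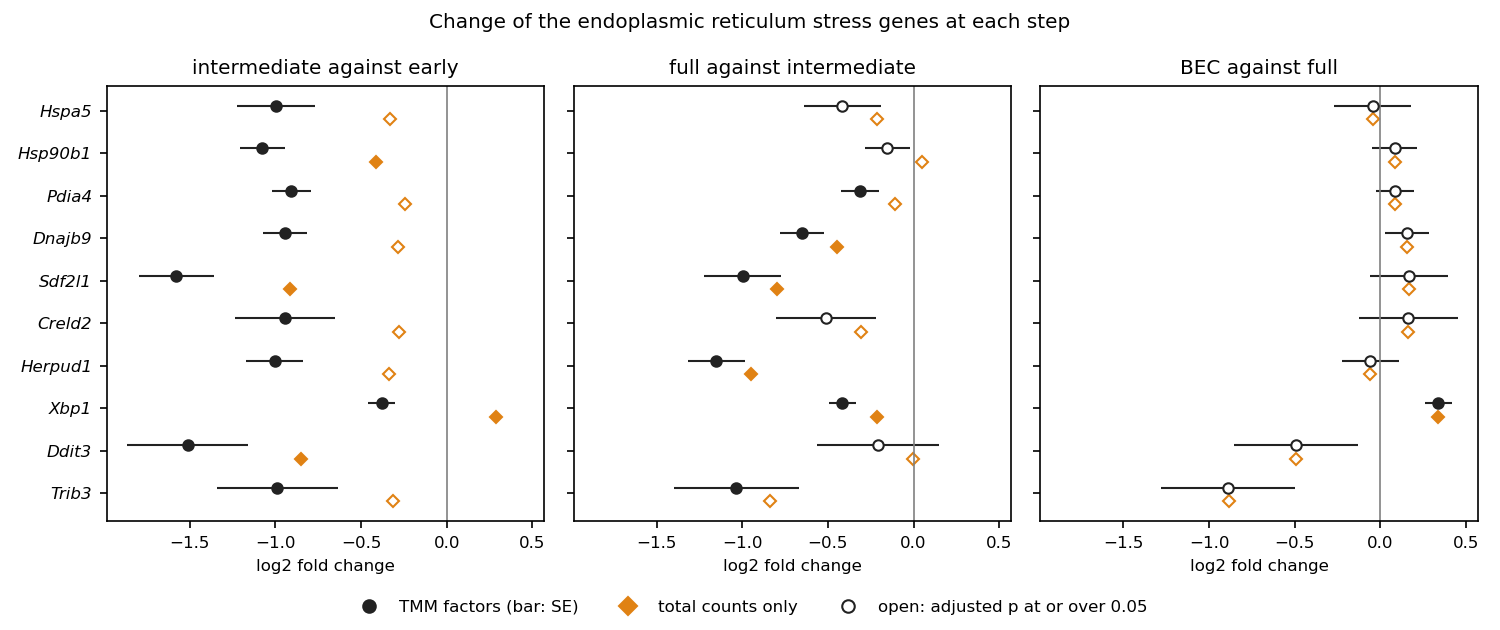
Log2 fold change of each ER stress gene at the 3 steps (intermediate against early, full against intermediate, BEC against full), under TMM with the standard error as bars, and under total counts without bars. All 10 points lie below 0 at the first step with TMM, and Xbp1 lies above 0 with total counts.

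Ddit3 encodes CHOP, the transcription factor tied to prolonged ER stress. Its level was 18.1, 53.7 and 27.7 CPM in early, 7.86, 14.96 and 11.8 in intermediate, 7.87, 11.3 and 10.98 in full, and 4.67, 8.67 and 8.04 in BEC. Early libraries lay above the rest but differed among themselves by more than the gap to intermediate. Ddit3 fell 2.85-fold at the first step (log2 −1.51, SE 0.36, adjusted p = 0.00255) and was called lower with total counts too (−0.85, adjusted p = 0.0469). With each library left out in turn this fall ranged from −1.81 to −0.99 and stayed called. Neither later step was called. The log2 fold change was −0.21 from intermediate to full (adjusted p = 0.685) and −0.49 from full to BEC (95% interval −1.27 to 0.29, adjusted p = 0.417).

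Trib3, a pseudokinase induced by ATF4 and CHOP, had a lower mean in each successive group. Its level was 38.8, 19.8 and 12.7 CPM in early, 16.3, 9.53 and 10.2 in intermediate, 7.83, 4.95 and 4.77 in full, and 4.19, 2.80 and 2.51 in BEC. Early and intermediate overlapped, and the other neighbouring groups did not. Trib3 fell by 0.99 at the first step (SE 0.36, adjusted p = 0.0305) and by 1.03 at the second (SE 0.37, adjusted p = 0.0371). Without early replicate 1 the first was −0.43 (adjusted p = 0.258). The other losses of these calls on leaving out a library came with smaller shifts of the value. The first was −0.85 and −0.89 without intermediate replicate 2 or 3 (adjusted p = 0.107 and 0.0901). The second was −0.76 without intermediate replicate 1, −0.93 without full replicate 2 and −0.91 without full replicate 3 (adjusted p = 0.145, 0.120 and 0.117). With total counts neither was called (adjusted p = 0.437 and 0.0772). Between BEC and full the log2 fold change of Trib3 was −0.89 (SE 0.39, adjusted p = 0.139), which was called lower with the replicate block (adjusted p = 0.00463), with only the 6 libraries compared (adjusted p = 0.0357) and without early replicate 1 (adjusted p = 0.0467).

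Over the wider intervals all 10 genes were lower in full than in early, where 32.1% of all genes were called lower, and all 10 were lower in BEC than in early, where 33% were. Trib3 was 4.06-fold lower in full and 7.51-fold lower in BEC than in early (log2 −2.02 and −2.91, SE 0.37 and 0.39). Sdf2l1 was 5.96-fold and 5.30-fold lower, and Herpud1 4.45-fold and 4.64-fold lower, in the same order. Xbp1 moved least, 1.74-fold and 1.37-fold lower, and with total counts its log2 fold changes were 0.07 (full) and 0.41 (BEC, called higher). With total counts 8 of the 10 genes remained called lower in full, Creld2 (adjusted p = 0.0781) and Xbp1 not, and 7 in BEC, where Hsp90b1 (−0.28, adjusted p = 0.0656) and Creld2 (−0.42, adjusted p = 0.191) lost the call. With this scaling 14.8% of all genes were called lower in full and 16.2% in BEC. These comparisons share the early libraries.

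Between BEC and intermediate 4 of the 10 genes were called lower, against 26.2% of all genes. They were Dnajb9 (log2 −0.49, SE 0.13), Sdf2l1 (−0.83, SE 0.22), Herpud1 (−1.21, SE 0.17) and Trib3 (−1.92, SE 0.39), with adjusted p of 0.00528, 0.00658, 3.88e-05 and 0.000871. With total counts 3 were called, against 18.1% of all genes, and Dnajb9 was not (−0.29, adjusted p = 0.0676). With the replicate number as a block 7 were called lower. Hspa5 (−0.41, adjusted p = 0.0132), Pdia4 (−0.22, adjusted p = 0.0316) and Ddit3 (−0.69, adjusted p = 0.0066) were added. The share of all genes called with the block is not given here. The F test over the 4 groups called all 10, against 75.6% of all genes. With total counts it called 8, and the share of all genes with that scaling is not given here, so the 8 cannot be set against it.

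For the members not called between BEC and full, the 95% intervals bound the difference on the log2 scale. They were −0.53 to 0.44 for Hspa5, −0.20 to 0.36 for Hsp90b1, −0.15 to 0.33 for Pdia4 and −0.12 to 0.43 for Dnajb9. They were −0.32 to 0.66 for Sdf2l1, −0.46 to 0.79 for Creld2, −0.42 to 0.30 for Herpud1 and −1.27 to 0.29 for Ddit3. The interval of Trib3, −1.73 to −0.05, lay below 0 although its adjusted p in edgeR was 0.139, since the intervals are not adjusted for the number of genes. A gene that was not called is not thereby shown to be equal in both groups.

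Between genes, levels were compared per kilobase of exon. Hspa5 had the highest mean in each group, with 321 ± 93.5 CPM per kb for early, 161 ± 49.9 for intermediate, 120.4 ± 14.9 for full and 117 ± 8.48 for BEC cells (SD, n = 3). Herpud1 was next in early with 264 ± 68.7 and in intermediate with 132 ± 20.8, both overlapping Hspa5, and took the fifth place in BEC with 56.9 ± 5.31, overlapping Pdia4 (62.6 ± 4.30). Hsp90b1 followed at 198 ± 30.0 in early and 89.3 ± 1.78 in BEC, overlapping Herpud1 in early, and Pdia4 stood at 137 ± 8.09 in early, below every Hsp90b1 library. Xbp1 took the fifth place in early (99.3 ± 2.61) and the third in BEC (72.3 ± 1.36). Creld2 (40.3 ± 16.999), Sdf2l1 (39.5 ± 1.57) and Dnajb9 (39.4 ± 5.02) overlapped in early and could not be ordered. Ddit3 (19.4 ± 10.7) and Trib3 (11.2 ± 6.34) had the lowest means in early and overlapped. Ddit3, at up to 31.3 in early, also overlapped Creld2, at down to 26.5. Ddit3 and Trib3 had the lowest means in BEC too, at 4.16 ± 1.25 and 1.49 ± 0.423, without overlapping each other. In BEC Ddit3, at up to 5.06, overlapped Sdf2l1, at down to 4.43.

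Among the 6 sensors and proteases tested, Eif2ak3 (PERK) and Mbtps1, whose protease cuts ATF6, rose and Ern1 (IRE1) and Atf6 fell at the first step. These 2 higher and 2 lower calls of 6 are near the shares of all genes (28.7% and 25.7%). Eif2ak3 went from 51.9 ± 4.84 CPM in early to 96.3 ± 7.73 in intermediate (log2 0.89, SE 0.10, adjusted p = 3.37e-06), and Mbtps1 changed by 0.25 (SE 0.09). Ern1 went from 136 ± 14.8 to 76.7 ± 5.46 CPM (−0.82, SE 0.09) and Atf6 from 143 ± 17.96 to 81.6 ± 1.11 (−0.81, SE 0.10). With total counts Ern1 (−0.16, adjusted p = 0.149) and Atf6 (−0.14, adjusted p = 0.213) were not called and 4 of the 6 genes were called higher, against 59.4% of all genes. From intermediate to full Eif2ak3 had a log2 fold change of 0.15 (adjusted p = 0.222), and with total counts 3 of the 6 genes were called higher at this step, against 32.3% of all genes. Eif2ak3 rose in BEC against full (0.30, SE 0.09, adjusted p = 0.0314). A seventh gene, Ern2, had too few counts to be tested.

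Among 24 other ER chaperones and folding enzymes, 22 fell from early to intermediate (25.7% of all genes did), with a median log2 fold change of −0.85. P4hb, the beta subunit of prolyl 4-hydroxylase and a disulfide isomerase, went from 2321 ± 181 to 846 ± 18.1 CPM (log2 −1.46, SE 0.09). Fkbp11, a prolyl isomerase of secretory cells, went from 38.4 ± 5.29 to 14.1 ± 0.968 CPM and then to 4.81 ± 1.08 in full (−1.45 and −1.54, SE 0.16 and 0.17). At the second step 13 fell (19.8% of all genes did) and 1 rose, the disulfide reductase gene Dnajc10 (0.38, SE 0.13). The oxidase gene Ero1b fell at every step, from 79.4 ± 6.66 CPM in early through 32.7 ± 4.04 and 19.9 ± 1.59 to 12.3 ± 1.52 in BEC. Ero1b (−0.69, SE 0.12) and the ER peroxiredoxin gene Prdx4 (−0.70, SE 0.10) were the 2 genes of the 24 called between BEC and full, both lower, against 10.6% of all genes. With total counts the list had 9 lower and 3 higher calls at the first step, where 10% and 59.4% of all genes were called, and 7 lower and 2 higher at the second, against 12.2% and 32.3%.

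Of 18 genes of ER-associated degradation, 14 fell and 1 rose at the first step (median −0.60), and 9 fell and 1 rose at the second (median −0.36), against the lower shares of 25.7% and 19.8% over all genes. Edem1, which directs misfolded glycoproteins to degradation, fell at each step, from 277 ± 22.7 CPM in early to 108 ± 15.5, 61.8 ± 6.52 and 47.5 ± 2.25. Derl2, a membrane channel component, fell by 1.21 at the first step (SE 0.08) and the selenoprotein gene Selenos by 0.74 at the second (SE 0.08). The riser at both steps was Stt3b, a catalytic subunit of oligosaccharyltransferase, with group means of 228 ± 11.8, 393 ± 21.3, 519 ± 36.7 and 666 ± 23.6 CPM from early to BEC. Between BEC and full 3 genes rose, the lectin gene Erlec1 (0.39, SE 0.12) and Stt3b (0.36, SE 0.09) among them, and Edem1 was the single gene that fell (−0.38, SE 0.12), against 10.7% and 10.6% of all genes. With total counts 6 of 18 were called lower and 7 higher at the first step, against 10% and 59.4% of all genes, and 5 lower and 2 higher at the second, against 12.2% and 32.3%.

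The 22 genes of the translocon, signal peptide processing and early transport had 20 lower calls at the first step (median −0.59) and 10 at the second (median −0.21), with the other genes not called. Over all genes 25.7% and 19.8% were called lower. Sec11c, a signal peptidase subunit, averaged 37.3 ± 2.60 CPM in early, 14.1 ± 1.25 after the first step and 14.6 ± 1.01 in full, and was back at 31.0 ± 4.14 in BEC (log2 1.09 against full, SE 0.12, adjusted p = 1.96e-05). Srpr, a receptor subunit for the signal recognition particle, fell by 1.08 at the first step (SE 0.08). The coat subunit gene Sec24d (−0.82, SE 0.10) and the channel gene Sec61b (−0.59, SE 0.09) fell at the second, and Sec24d fell again in BEC (−0.30, SE 0.10). With total counts 4 of 22 were lower and 7 higher at the first step, against 10% and 59.4% of all genes, and 5 were lower at the second, against 12.2%.

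The 26 genes of ATF4 and the integrated stress response, the pathway of Ddit3 and Trib3, moved in both directions. With TMM they were called lower more often than all genes at the first step, and higher about as often. At that step 11 fell and 7 rose (median −0.38), at the second 7 fell and 7 rose (median −0.19), and 5 were lower and 2 higher in BEC than in full (median −0.29). The shares of all genes called lower and higher were 25.7% and 28.7%, then 19.8% and 20.8%, then 10.6% and 10.7%. Slc7a11, the cystine transporter, averaged 82.0 ± 72.1 CPM in early, 14.1 ± 6.73 in intermediate and 2.51 ± 0.945 in full (log2 −2.55 and −2.48, SE 0.53 and 0.60). Shmt2, a mitochondrial enzyme of one-carbon metabolism, fell from 351 ± 17.1 to 70.9 ± 2.29 CPM at the first step, and the secreted factor Gdf15 from 111 ± 41.4 to 23.2 ± 11.1 at the second. In the other direction, the lipoprotein receptor gene Vldlr rose from 8.53 ± 2.41 to 85.3 ± 4.49 CPM and the serine synthesis gene Phgdh from 4.11 ± 0.735 to 11.98 ± 1.89 at the first step. Slc7a5, an amino acid transporter, rose by 1.23 at the second step (SE 0.26). Ddit4, an inhibitor of mTORC1 signalling, rose at the second step and again in BEC, to 58.3 ± 10.7 and 139.8 ± 26.6 CPM. The stress-induced gene Nupr1 rose in BEC against full (2.25, SE 0.23) while the serine synthesis gene Psat1 (−1.21, SE 0.24) and the transcription factor gene Atf5 (−1.11, SE 0.21) fell. With total counts 3 of 26 were lower and 11 higher at the first step, against 10% and 59.4% of all genes.

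Heat shock and dissociation genes also respond to tissue handling. Of 14, 4 rose and 1 fell at the first step (median 0.24), where 28.7% of all genes rose and 25.7% fell. At each of the later steps 2 fell, where 19.8% and 10.6% of all genes did, so these calls are near or below the shares of all genes. Hspa1a rose from 3.77 ± 1.84 to 39.5 ± 7.68 CPM and the small heat shock gene Hspb1 from 52.5 ± 5.68 to 214 ± 36.3 at the first step. Hspa1a has a near-identical copy, Hspa1b, with which it can share reads, so its value is uncertain. Hspe1, a mitochondrial chaperonin, fell at the first (−1.05, SE 0.11) and at the second (−0.70, SE 0.11). Hspa8 fell at the second (−0.62, SE 0.19), and Hspb1 (−1.44, SE 0.15) and Hsp90aa1, the inducible cytosolic Hsp90 (−0.57, SE 0.13), were lower in BEC than in full. With total counts 9 of 14 rose and 1 fell at the first step, against 59.4% and 10% of all genes, and Hspa8 was not called at the second (adjusted p = 0.0879).

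**Figure D3:**
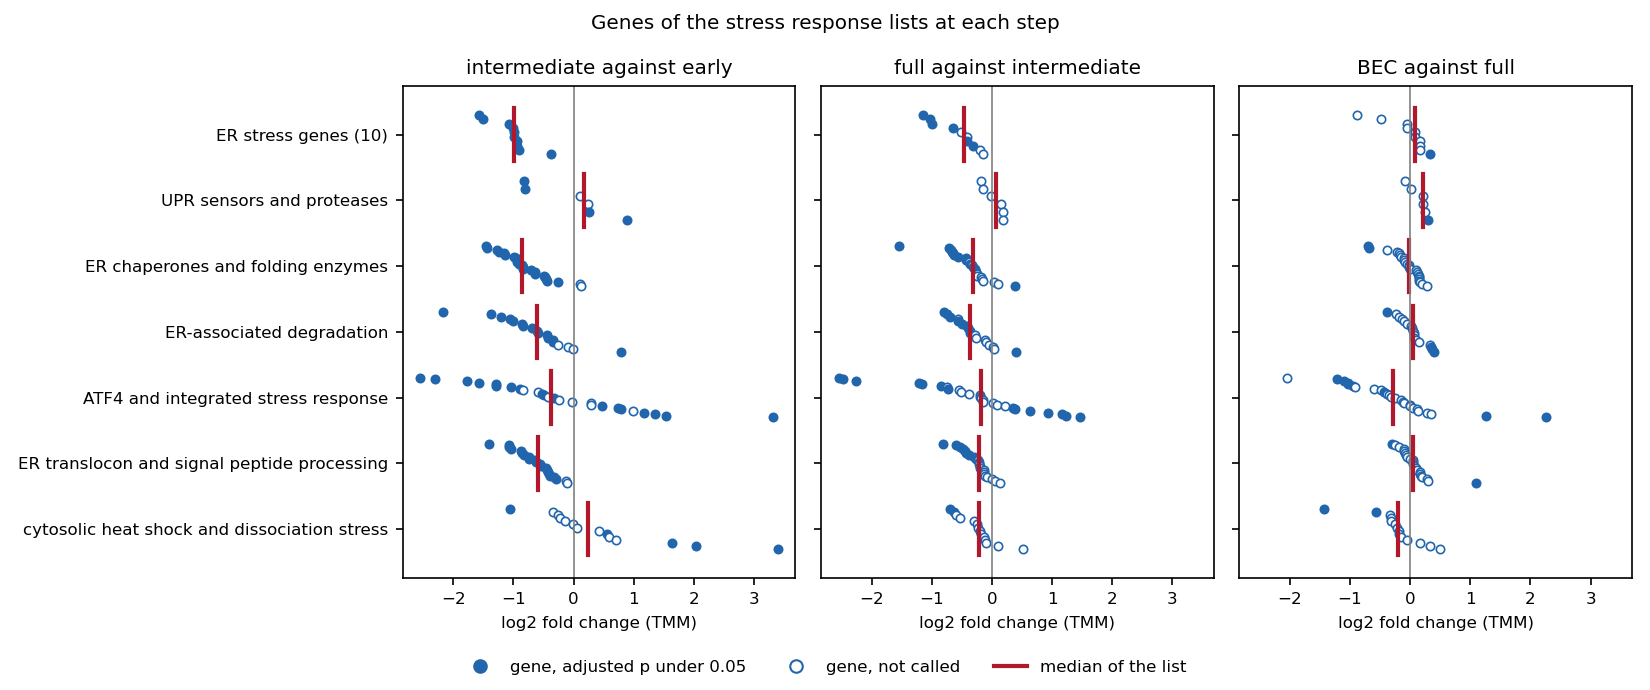
Log2 fold change (TMM) of each gene of 7 lists at the 3 steps, each point 1 gene and each vertical mark the median of a list. At the first step the chaperone, degradation and translocon lists centre on −0.85, −0.60 and −0.59, and the heat shock list on 0.24.

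Levels of hepatocyte markers and of markers of other cell types were as follows. The summed level of 8 hepatocyte markers was 94610 to 98799 CPM across early libraries, 14469 to 18922 across intermediate, 3162 to 4161 across full and 1963 to 2595 across BEC libraries. Endothelial markers (7 genes) summed to 13.8 to 22.3 CPM in early and 1.73 to 6.63 in BEC, and without Stab2 to 2.93 to 10.0035 in early, 2.07 to 7.98 in intermediate, 1.23 to 2.41 in full and 1.45 to 4.75 in BEC. Early and full did not overlap and the other groups overlapped with early. Of 6 endothelial markers tested, 3 were called lower in full than in early and 1 in BEC than in early, against 32.1% and 33% of all genes. Stellate cell and fibroblast markers without Rgs5 summed to 109.8 to 321 CPM in early, 63.9 to 187 in intermediate, 48.4 to 83.8 in full and 61.8 to 106 in BEC. Of all 8, 7 were called lower in full than in early and 5 in BEC than in early, against 32.1% and 33% of all genes, while Rgs5 itself averaged 41.0 CPM in early and 3185 in full. The 6 T and NK cell markers and the 5 neutrophil markers summed to at most 0.466 and 1.02 CPM in any library. The part of these cells in the ER stress results was not tested.

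The replicate number carried a second pattern within the groups. The test of this pattern, an F test of the replicate number over all 12 libraries, was chosen after the values had been seen. It called Hspa5, Creld2, Ddit3 and Trib3, 4 of the 10 genes, against 3.52% of all genes (571 of 16210). Hspa5 was higher by 0.59 in replicate 2 and by 0.37 in replicate 3 than in replicate 1 (log2, adjusted p = 0.0245), Creld2 by 0.78 and 0.27 (adjusted p = 0.0117), and Ddit3 by 1.003 and 0.61 (adjusted p = 0.0110). Trib3 ran the other way, with log2 differences of −0.77 and −0.95 (adjusted p = 0.00933). Replicate 1 was the lowest library in all 4 groups for Hspa5, Pdia4, Sdf2l1 and Ddit3, as for 6.63% of all genes, and the highest in all 4 for Trib3, as for 6.41%.

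Some stress genes outside the ER set shared this split by number. The same test called 7 of the 14 heat shock and dissociation genes and 5 of the 26 integrated stress response genes. It also called 5 of 8 macrophage markers tested, where 3.52% of all genes were called. Replicate 1 was lowest in all 4 groups for 9 of the 14, 4 of the 26 and 5 of the 8, against 6.63% of all genes. Atf3, a stress-induced transcription factor, stood at 43.1, 214 and 304 CPM in early replicates 1, 2 and 3 and at 77.8, 425 and 611 in intermediate. It stood at 109, 363 and 539 CPM in full and 54.0, 186 and 295 in BEC (adjusted p = 3.24e-07 for the number). Fos (288, 489 and 648 CPM in early) and Jun (605, 951 and 1183) had replicate 1 lowest in all 4 groups as well. Of the 24 other ER chaperones and folding enzymes 2 were called. Hyou1 (adjusted p = 0.0105) had replicate 1 lowest in all 4 groups, and Dnajc10 (adjusted p = 0.0265) ran the other way, with replicate 1 highest in all 4. Of the 18 degradation genes, the 22 translocon genes and the 6 sensors and proteases, 0 were called. Atf4 (adjusted p = 0.0138) was called with replicate 1 lowest in all 4 groups. Slc7a11 was highest in replicate 1 in 3 of the 4 groups, with 165, 48.2 and 33.1 CPM in early (adjusted p = 0.0245). What the number marks is not given in the sources used here.

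**Figure D4:**
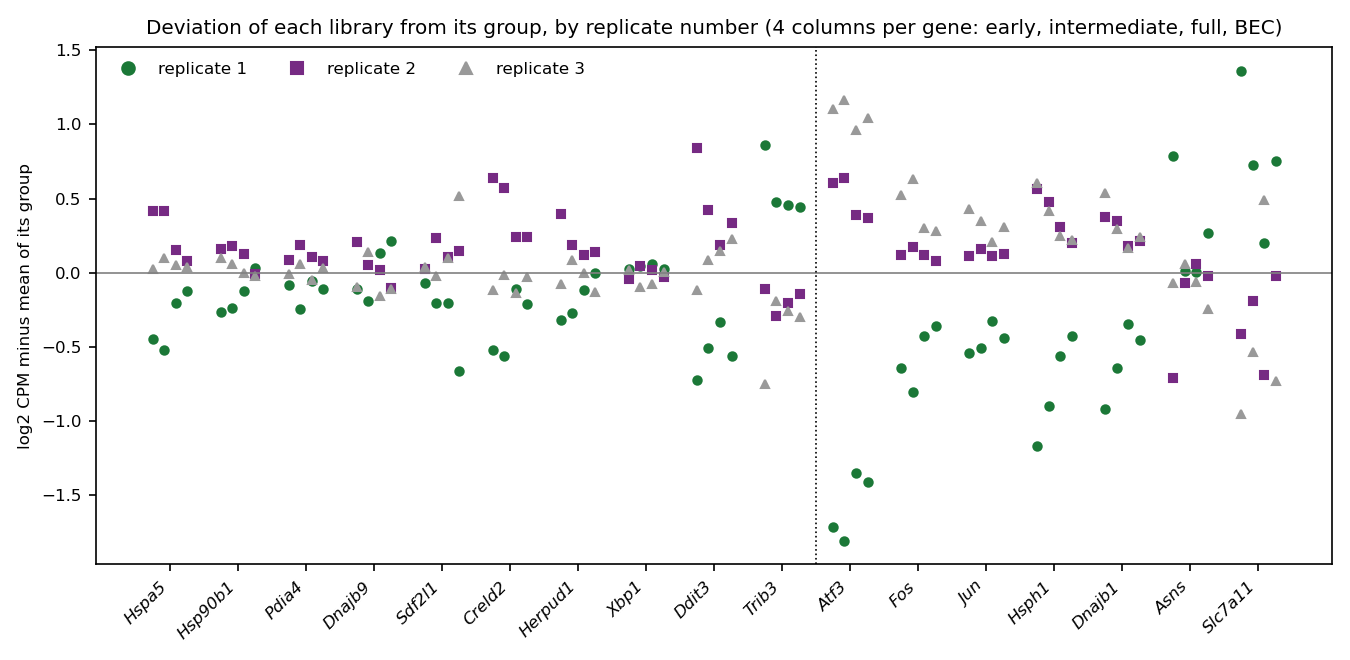
Deviation of each library from its group mean in log2 CPM, by replicate number, for the ER stress genes and, right of the dotted line, other stress genes, with 4 columns per gene for early, intermediate, full and BEC. Replicate 1 lies lowest in all 4 groups for Hspa5 and Ddit3 and highest for Trib3.

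Across the 12 libraries the folding factors ran closely together, and Trib3 less so. As a description over libraries that share the group differences and the scaling, Pearson's r of log2 CPM was 0.98 between Hsp90b1 and Pdia4 and 0.97 between Hspa5 and Creld2. It was lowest between Trib3 and Creld2, at 0.54. Among 9954 other genes with a mean of at least 10 CPM, those most like Hspa5 were Hyou1 (r = 0.99), Nucks1 (0.98), Syvn1 (0.98), Txndc11 (0.98) and Arhgef26 (0.97). Hyou1 and Txndc11 also stand in the chaperone list and Syvn1 in the degradation list. Those most like Trib3 were Rhod (0.98), Mri1 (0.98), Pkp2 (0.98), Prpf19 (0.98) and Psmd3 (0.97), none of which stands in a list used here.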

How the data were processed

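Bulk RNA-seq was done on 12 libraries, 3 in each of 4 groups taken from the sample titles. The authors deposited raw counts per gene symbol, made with STAR 2.7.10b and featureCounts 2.0.1 on build GRCm39, per the submitters' processing notes. They also deposited a table of signal, which was these counts divided by 1 factor per library (from 0.623 to 1.33), and the notes name DESeq2. Annotation, strandedness and the handling of reads that match several genes are not given in the sources used here, so reads from overlapping genes or close copies cannot be told apart. All tests used the counts.

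Fits were made with edgeR 4.0.16, limma 3.58.1 and DESeq2 1.42.0 in R 4.3.3, and figures with matplotlib 3.10.9 in Python 3.11.15. Genes were filtered by filterByExpr (16210 kept), scaled by TMM and fitted in 1 quasi-likelihood model with a term per group. P-values were adjusted by the Benjamini-Hochberg method over all genes tested, and the procedure was tested on simulated data. Log2 CPM used a prior count of 2. The common biological coefficient of variation was 14.8%. A level of 3 counts, the floor, was 0.128 to 0.273 CPM and covers counting error only. Replicates differed beyond counting error (chi-square per degree of freedom 4.95 to 52.1). Levels per kb used GENCODE M21 exon lengths by symbol, and promoters the RefSeq table of GRCm38.p6. No coordinates of the files' own build were used.

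The members and lists were chosen with earlier results of these data known. Beyond the members, the rule named up to 2 genes per direction, list and step, by fold change among called genes of at least 10 CPM in the higher group without overlap of replicates, and the 5 genes most like Hspa5 and Trib3. The test of the replicate number and the genes named for it outside the members (Atf3, Fos, Jun, Hyou1, Dnajc10, Atf4 and Slc7a11) were chosen after the values were seen. So were the markers left out of sums (Rgs5, Csf1r and Stab2) and the naming of Cd68.

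Labels number the replicates 1 to 3 in each group. Same-numbered libraries deviated together across genes: r was 0.121 to 0.293 between early and intermediate, 0.137 to 0.322 between intermediate and full, and 0.170 to 0.257 between full and BEC, so the numbers pair these libraries. The remaining comparisons each had a pair below 0.1 and were not treated as paired. Their groups are still linked by number through the neighbouring groups, so calls of members with the replicate block are given for them too. Alternatives were DESeq2, median-of-ratios factors, total counts, no filter, a mean of at least 50 counts, a replicate block, 6 libraries at a time, a minimum fold of 1.5 and leaving out each library.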

Additional observations from a re-analysis of the deposited data

How the results depend on the processing

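Of 480 fold changes of single members under alternatives to the whole fit, 432 kept their direction and side of the threshold, 30 lost the call, 12 gained it and 6 turned. Total counts gave 4 called members between intermediate and early in place of 10, and 4 between full and intermediate in place of 6. They turned Xbp1 to 0.28 (intermediate against early), 0.0707 (full against early), 0.41 (BEC against early) and 0.12 (BEC against intermediate), and Hsp90b1 to 0.0494 (full against intermediate) and 0.13 (BEC against intermediate). With total counts the share of higher calls over all genes went from 51.2% to 72.6% for full against intermediate, from 54.9% to 81.8% for full against early, from 54.8% to 80.3% for BEC against early and from 50.1% to 66.5% for BEC against intermediate. The replicate block gave 8 called members in full against intermediate, 2 in BEC against full and 7 in BEC against intermediate, and changed no other call of a member. The shares of all genes called in that fit are not given here. Fits of only the 6 libraries gave 9 members in intermediate against early (Trib3 lost, adjusted p = 0.0543), 5 in full against intermediate (Pdia4 lost, adjusted p = 0.0557) and 2 in BEC against full. Requiring a fold of over 1.5 left 7 members in intermediate against early (Creld2, Xbp1 and Trib3 lost), 9 in BEC against early (Xbp1 lost), 1 in full against intermediate, 0 in BEC against full and 2 in BEC against intermediate, and 46, 11 and 7 genes of the lists at the 3 steps in place of 84, 50 and 18, since it asks for more than a difference from 0. Without a filter the single call between BEC and full was Trib3, lower (adjusted p = 0.00351).

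Leaving out each library in turn gave 9 to 10 called members in intermediate against early, 4 to 6 in full against intermediate, 1 to 2 in BEC against full, 4 to 6 in BEC against intermediate, and 10 to 10 in full against early, BEC against early and over the 4 groups. The genes of the lists ranged from 78 to 88, 37 to 55 and 14 to 20 at the 3 steps. Of 720 fold changes of members, 13 lost the call, 4 gained it and 6 turned, the last being members not called with all libraries. Without intermediate replicate 2, Ddit3 went to 0.0205 in full against intermediate (range −0.417 to 0.0205) and Hsp90b1 to 0.0234 in BEC against intermediate (−0.184 to 0.0234). In BEC against full, Hspa5 ranged from −0.142 to 0.0310 (above 0 without full replicate 2 or BEC replicate 1), and without BEC replicate 3 Sdf2l1 went to −0.116 (−0.116 to 0.429) and Herpud1 to 0.00320 (−0.132 to 0.00320). The cause of these changes was not tested. With 3 libraries per group and a coefficient of variation of 14.8%, members that vary between replicates (Creld2, Ddit3, Trib3) have standard errors of 0.29 to 0.39 in the main fit. This limits the differences in them that the main fit could detect. The replicate block called Creld2 in full against intermediate (−0.45, adjusted p = 0.0243), Ddit3 in BEC against intermediate (−0.69, adjusted p = 0.0066) and Trib3 in BEC against full (−0.89, adjusted p = 0.00463), which the main fit did not call.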
